A study of Mus musculus with 6 samples.

Results

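The insulin-like growth factor (IGF) binding proteins and the receptor side of the IGF pathway were followed in basal cells of mouse epidermis through 10 genes: Igfbp2, Igfbp3, Igfbp4, Igfbp5, Igfbp6, Igfbp7, Igfals, Igf1r, Irs1 and Irs2. Every probe set that the platform annotation assigns to 1 of these genes was taken, which gave 23 of the 45101 probe sets on the array and 10 of the 18193 genes named there. RNA came from α6-integrin-positive epidermal cells, sorted from adult C57BL/6 females of 10 weeks, and was measured on 6 Affymetrix 3′ expression arrays. The 3 groups of 2 arrays were cells of ventral skin at 16 days post coitum (16 dpc ventral), cells of dorsal skin at 16 dpc (16 dpc dorsal) and cells of ventral skin of virgin mice (virgin ventral), all without transgene or treatment in the labels. Dorsal skin of virgin mice was not analysed here, so a difference between 16 dpc dorsal and virgin ventral cells mixes skin site with pregnancy. Each p-value here rests on the spread between arrays within all 3 groups together, adjusted towards that of genes of similar signal. The labels do not say whether the 2 arrays of a group came from separate animals, so that spread may be technical.

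IGF1 and IGF2 are secreted growth factors that act through the receptor tyrosine kinase IGF1R, which passes the signal to the adaptor proteins IRS1 and IRS2 and from there to PI3 kinase and AKT. Most circulating IGF is held by binding proteins of the IGFBP family, which extend its life in blood, carry it to tissues or keep it from the receptor, and several of them also act on cells without IGF. In skin, IGF1 is known chiefly as a product of dermal fibroblasts, whereas keratinocytes carry the receptor and secrete IGFBP3.

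The arrays gave a call of present, meaning signal above mismatch background, for 47.2% to 53.3% of probe sets. All 8 basal keratinocyte markers examined, Krt5, Krt14 and Itga6 among them, were called present on all 6 arrays. All 6 markers of spinous differentiation were too, so these calls do not mark basal cells alone. The 6 markers of Langerhans and other antigen-presenting cells summed to 10303 and 7697 in 16 dpc ventral cells. Their sums were 10407 and 9479 in 16 dpc dorsal and 6529 and 7240 in virgin ventral cells. All except Epcam were higher on each 16 dpc array than on both virgin arrays. The part of either cell type in the IGF pathway values was not tested. Among markers of other cells, the milk protein gene Csn2 had a signal of 6185 and 699 in 16 dpc ventral cells, 204 and 348 in 16 dpc dorsal cells, and 172 and 2.29 in virgin ventral cells. The actin 3′ to 5′ signal ratio, which is higher where transcripts are shortened, was 1.78 and 3.90 in 16 dpc ventral, 2.04 and 4.47 in 16 dpc dorsal and 2.46 and 2.15 in virgin ventral cells, replicate 1 first in each group. Signals are in arbitrary units on a linear scale and can be compared between arrays for 1 probe set, but not between probe sets.

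At the probe set standing for each gene, Igfbp3, Igfbp5 and Igfbp7 were lowest in 16 dpc dorsal cells. Irs2 was called present in virgin ventral cells alone. For these 4 genes, the 250 bases before the annotated start are shown. They were taken from RefSeq on build GRCm38.p6, at chr11:7213924-7214173 for Igfbp3, chr1:72874866-72875115 for Igfbp5, chr5:77408046-77408295 for Igfbp7 and chr8:11008930-11009179 for Irs2, all on the minus strand, and are written 5′ to 3′ in the direction of the gene. Capitals mark every match, on either strand, to 1 of 9 short motifs that were searched.
Igfbp3: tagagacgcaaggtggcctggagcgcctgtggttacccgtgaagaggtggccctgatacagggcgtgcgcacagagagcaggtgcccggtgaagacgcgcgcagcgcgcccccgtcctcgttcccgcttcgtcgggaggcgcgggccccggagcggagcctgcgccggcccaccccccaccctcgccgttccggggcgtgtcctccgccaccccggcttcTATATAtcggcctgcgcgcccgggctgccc
Igfbp5: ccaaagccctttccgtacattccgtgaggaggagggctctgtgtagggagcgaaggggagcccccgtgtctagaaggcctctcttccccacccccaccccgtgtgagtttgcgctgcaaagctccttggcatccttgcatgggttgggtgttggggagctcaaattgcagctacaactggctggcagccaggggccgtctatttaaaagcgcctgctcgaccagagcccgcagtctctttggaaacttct
Igfbp7: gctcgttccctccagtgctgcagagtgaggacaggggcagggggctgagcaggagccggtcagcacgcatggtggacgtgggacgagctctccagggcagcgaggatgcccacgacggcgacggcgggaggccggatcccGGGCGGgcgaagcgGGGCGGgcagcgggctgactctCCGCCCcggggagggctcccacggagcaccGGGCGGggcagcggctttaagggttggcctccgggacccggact
Irs2: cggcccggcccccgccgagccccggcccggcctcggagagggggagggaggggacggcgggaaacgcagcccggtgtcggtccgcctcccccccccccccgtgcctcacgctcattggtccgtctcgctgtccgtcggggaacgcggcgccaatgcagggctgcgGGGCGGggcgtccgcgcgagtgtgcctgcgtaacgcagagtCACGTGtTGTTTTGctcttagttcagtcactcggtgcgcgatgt
Igfbp3 held the TATA variant TATATA with its first base 30 bases before the start, a motif found in 5.25% of the 32851 RefSeq promoter windows of this length. Igfbp7 held 4 matches to the GC box GGGCGG, found in 32.7% of windows, and Igfbp5 held no match to any of the 9. Irs2 held 1 GC box, the E box CACGTG 44 bases before the start (6.02% of windows) and TGTTTTG, the core of insulin response sequences bound by FOXO factors, 37 bases before it (5.56% of windows). The window of Irs1 likewise held CACGTG and 2 matches to TGTTTTG. The other motifs searched were TATAAA (12.4% of windows), TGTTTAC (3.17%), the T-box core GGTGTGA (3.33%), the steroid receptor core TGTTCT (16.1%) and the CRE TGACGTCA (1.55%). CACGTG, TGACGTCA and TATATA read the same on both strands, and in Irs1 1 TGTTTTG begins inside CACGTG. All 10 genes matched an entry in the promoter table, with 13 start sites between them, and a match shows only that these letters stand in the window.

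Of the 10 genes, 9 were tested, since they had a probe set with 2 calls of present in some group, and Igfbp6 was not. None of the 9 passed an adjusted p of 0.05 in any comparison (limma, Benjamini-Hochberg over 10993 genes), against 22 genes (0.200%) between 16 dpc ventral and virgin ventral cells, 9 (0.0819%) between 16 dpc ventral and 16 dpc dorsal cells, and 0 (0%) between 16 dpc dorsal and virgin ventral cells. At an unadjusted p under 0.05, 5 of the 9 differed between 16 dpc ventral and virgin ventral cells (3 higher and 2 lower in 16 dpc ventral), where 11.6% of all genes did. In 16 dpc ventral against 16 dpc dorsal cells it was again 5 of 9 (4 higher, 1 lower), with 5.09% of all genes, and in 16 dpc dorsal against virgin ventral cells 5 of 9 (1 higher, 4 lower), with 7.27%. Igfals and Irs2 entered the test through calls of present in 1 group alone, the group where their signal is high, and so had to differ. Among the other 7 genes, the numbers with an unadjusted p under 0.05 were 3, 4 and 5 in the 3 comparisons. The arrays of the 2 groups did not overlap for 6, 5 and 6 of the 9 genes in these 3 comparisons, where 43.6%, 32.8% and 37.9% of all genes did not, and for 4, 4 and 5 of the 7. The median log2 fold change was 0.34, 0.62 and -0.50, both over the 9 genes and over the 7, beside medians of 0.02, -0.04 and 0.07 over all genes. The 3 comparisons share arrays, so that their counts are not separate evidence.

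**Figure D1:**
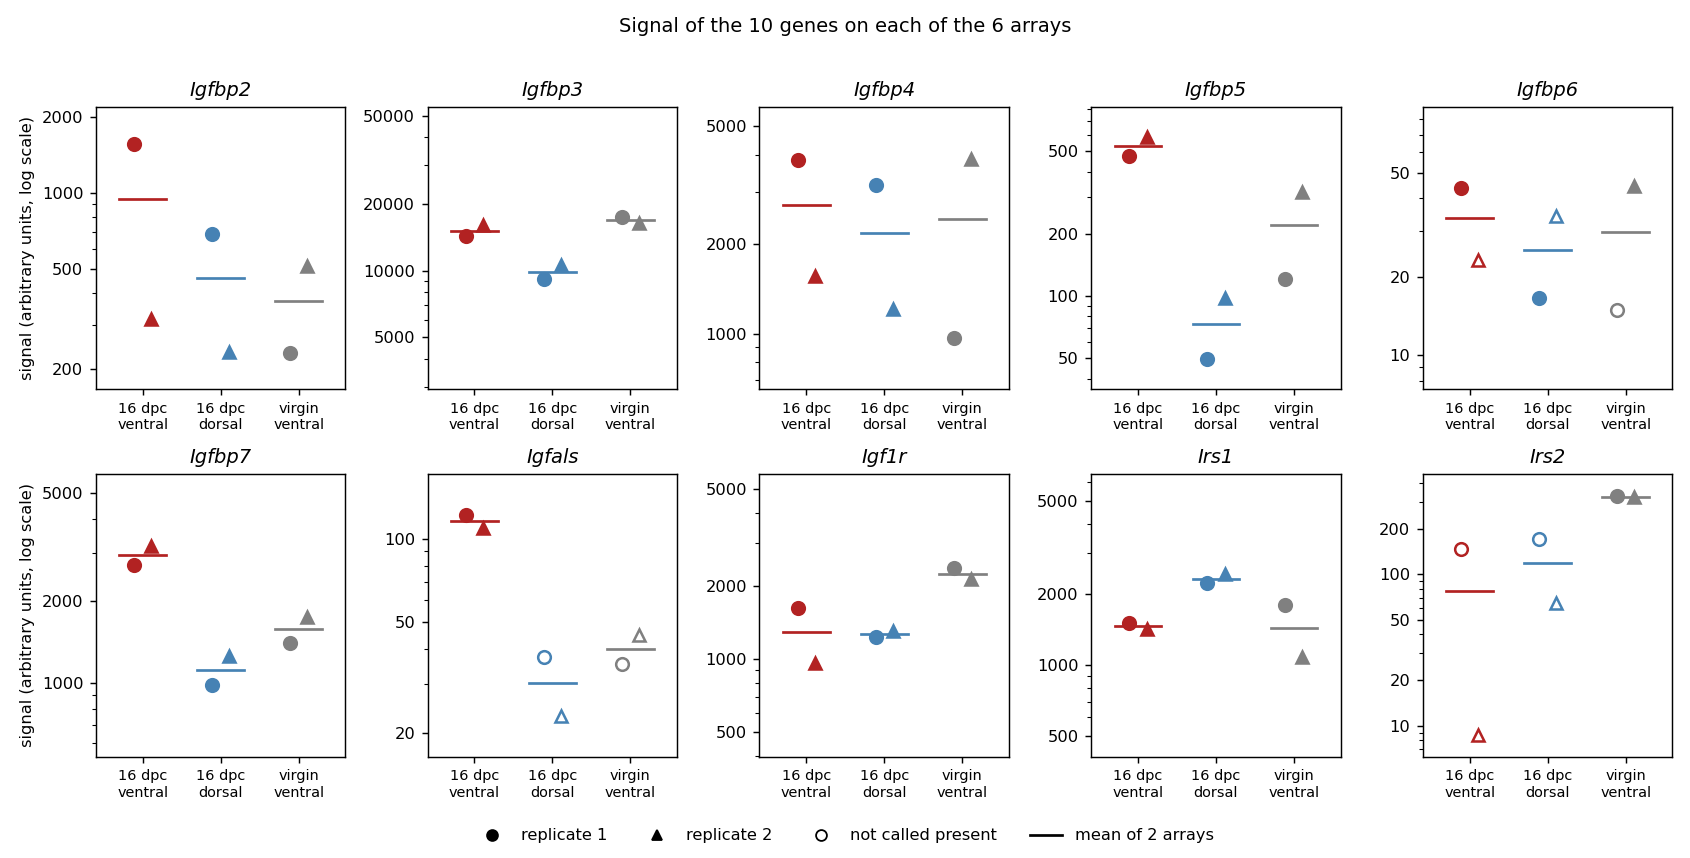
Signal (arbitrary units, log scale) of the probe set standing for each of the 10 genes on each array. Filled symbols were called present, circles are replicate 1, triangles replicate 2, and lines the mean of 2 arrays. Igfbp5 and Igfbp7 were highest in both 16 dpc ventral arrays and lowest in both 16 dpc dorsal arrays, whereas the 2 arrays of a group lay far apart for Igfbp2 and Igfbp4.

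Among the binding proteins, Igfbp7 gave the smallest p in both comparisons of 16 dpc ventral cells. IGFBP7 is a secreted protein with low affinity for IGF that binds insulin and is laid down in matrix and around vessels. Its signal was 2708 and 3195 in 16 dpc ventral, 978 and 1256 in 16 dpc dorsal, and 1399 and 1746 in virgin ventral cells. Both 16 dpc ventral arrays thus lay above all 4 others, and both dorsal arrays below all 4 others. The signal averaged 2951 ± 344 in 16 dpc ventral and 1117 ± 197 in 16 dpc dorsal cells (SD, n = 2 each), a log2 fold change of 1.41 ± 0.19 (SE) or 2.65-fold (limma, adjusted p = 0.0562). Against virgin ventral cells, which averaged 1573 ± 245, the log2 fold change was 0.91 ± 0.19 or 1.88-fold (limma, adjusted p = 0.142). Between 16 dpc dorsal and virgin ventral cells it was -0.50 ± 0.19 (limma, adjusted p = 0.663).

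A second probe set of Igfbp7, 1423585_at, was likewise higher in 16 dpc ventral cells, with 109 and 94.6, than in 16 dpc dorsal cells (65.6 and 55.2, the second not called present) and virgin ventral cells (42.1 and 75.4). Its log2 differences were 0.75 ± 0.42 over 16 dpc dorsal and 0.85 ± 0.42 over virgin ventral cells (limma, adjusted p = 1 and 0.564 over all probe sets), and it did not place dorsal cells below virgin cells. A further probe set of Igfbp7 was called present on no array. Averaging all probe sets of Igfbp7 gave a log2 fold change of 0.86 over 16 dpc dorsal and 0.69 over virgin ventral cells (limma, adjusted p = 0.972 and 0.511).

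Column headers give arrays of the same replicate number a common prefix in all 3 groups, which has the form of a date but is not explained in the sources used here. Within replicate 1 and within replicate 2, Igfbp7 was higher in 16 dpc ventral than in 16 dpc dorsal cells by 1.47 and 1.35 on the log2 scale, and higher than in virgin ventral cells by 0.95 and 0.87. When this number entered the fit as a block, 86 genes (0.782%) passed the threshold between 16 dpc ventral and virgin ventral cells and 16 (0.146%) between 16 dpc ventral and 16 dpc dorsal cells. Igfbp7 then passed in both (limma, adjusted p = 0.0361 and 0.0102), and Igfbp5 passed in the comparison with 16 dpc dorsal cells (adjusted p = 0.0107). Without the block and without a trend of variance with signal, Igfbp7 passed in neither (limma, adjusted p = 0.31 and 0.263). Igfbp5 did not pass against 16 dpc dorsal cells in that fit (adjusted p = 0.359). The block spans all 3 groups, but deviations from group means correlated mainly between 16 dpc dorsal and 16 dpc ventral arrays (r = 0.45). With virgin ventral arrays r was 0.03 for 16 dpc dorsal and 0.01 for 16 dpc ventral arrays.

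Igfbp5 showed the widest difference between ventral and dorsal skin among the genes measured in both groups. IGFBP5 is a binding protein that adheres to extracellular matrix and is the most conserved member of the family. Its signal was 473 and 587 in 16 dpc ventral, 49.6 and 97.5 in 16 dpc dorsal, and 121 and 319 in virgin ventral cells, all called present. The 3 groups did not overlap, and their order was the same as for Igfbp7. The log2 fold change of 16 dpc ventral over 16 dpc dorsal cells was 2.92 ± 0.48 or 7.58-fold (530 ± 81.0 against 73.6 ± 33.9, limma, adjusted p = 0.125). Over virgin ventral cells (220 ± 141) it was 1.43 ± 0.48 (limma, adjusted p = 0.317), and 16 dpc dorsal cells were lower than virgin ventral cells by a log2 fold change of -1.50 ± 0.48 (adjusted p = 0.602). Both of these depended on the 2 virgin arrays: without virgin ventral replicate 1 they were 0.72 and -2.20, and without virgin ventral replicate 2 they were 2.13 and -0.79. The difference from dorsal cells was 3.25 within replicate 1 and 2.59 within replicate 2. The probe set of these values is of the s type, which can also bind transcripts of related sequence, and the other probe set of Igfbp5 was called present on no array. Averaging the 2 probe sets gave a log2 fold change of 1.30 over 16 dpc dorsal and 0.65 over virgin ventral cells.

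Igfbp5 and Igfbp7 are also made by fibroblasts and by vessel-associated cells, so markers of these were read on the same arrays. Of 13 fibroblast markers, 5 to 6 were called present per array, and their summed signal was 3326 and 3730 in 16 dpc ventral, 2585 and 2594 in 16 dpc dorsal, and 2625 and 3781 in virgin ventral cells. Lum, Pdgfra and Dpt were called present on no array, Col1a1 on 1 and Dcn on 2. The 4 called present on all arrays differed in their order: Col6a1 was at 378 and 697 in 16 dpc ventral, 152 and 328 in 16 dpc dorsal, and 196 and 345 in virgin ventral cells, whereas Fn1 was at 409 and 334, 539 and 699, and 335 and 508. For Sparc the signals were 2072 and 2268, 1560 and 1159, and 1609 and 2158, and for Col6a3 87.9 and 108, 40.6 and 84.1, and 89.6 and 69.1, in the same order of groups. Of 8 endothelial markers, 1 to 2 were called present per array, with Pecam1 and Cdh5 on none. Of 7 pericyte and smooth muscle markers, 2 to 3 were called present, and their summed signal was 1076 and 1193 in 16 dpc ventral, 613 and 762 in 16 dpc dorsal, and 791 and 1885 in virgin ventral cells. The 2 called present on all arrays were Acta2, with 467 and 576, 260 and 418, and 278 and 1098, and Cspg4, with 413 and 434, 228 and 245, and 334 and 416, in the same order of groups. The part of these cell types in the values of Igfbp5 and Igfbp7 was not tested, and in RNA of sorted pools fewer cells of a type and less RNA per cell cannot be told apart.

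Igfbp3, the main carrier of IGF in blood and a product of basal keratinocytes, separated both ventral groups from the dorsal one. The signal was 14300 and 16061 in 16 dpc ventral, 9168 and 10617 in 16 dpc dorsal, and 17474 and 16363 in virgin ventral cells. The dorsal arrays were below all 4 ventral arrays, and the 2 ventral groups lay close together. The log2 fold change was 0.62 ± 0.16 for 16 dpc ventral over 16 dpc dorsal cells (1.54-fold, limma, adjusted p = 0.505) and -0.78 ± 0.16 for 16 dpc dorsal over virgin ventral cells (adjusted p = 0.268). Between 16 dpc ventral and virgin ventral cells it was -0.16 ± 0.16, with a 95% interval from -0.53 to 0.21 (adjusted p = 0.756). The other probe set of Igfbp3, 1458268_s_at, gave 6628 and 5760, 3263 and 3235, and 6356 and 7617 in the same order of groups. Its differences were 0.93 ± 0.15 for 16 dpc ventral over 16 dpc dorsal cells and -1.10 ± 0.15 for 16 dpc dorsal over virgin ventral cells (limma, adjusted p = 0.519 and 0.324 over all probe sets).

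**Figure D2:**
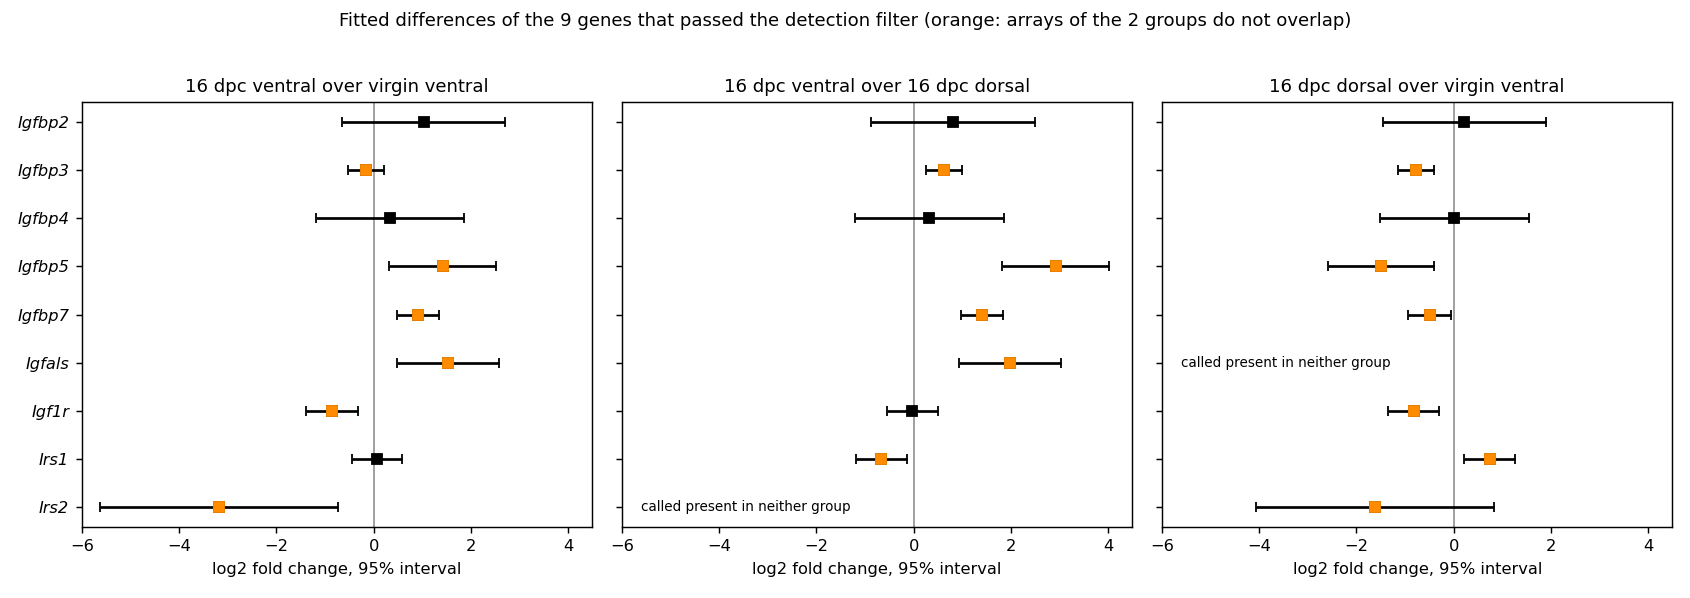
Log2 fold change with its 95% interval (limma, 6 arrays in 3 groups) of the 9 tested genes in the 3 comparisons. Orange squares mark genes for which the arrays of the 2 groups do not overlap, a gene called present in neither group has no point, and Igfals and Irs2 are set against signals not called present. Igfbp5 and Igfbp7 lie right of 0 in both comparisons of 16 dpc ventral cells, and Igf1r lies left of 0 in both comparisons with virgin ventral cells.

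For Igfbp2 the arrays of each group were far apart. IGFBP2 is a binding protein of fetal and adult tissues whose level in plasma changes with nutrition. Its signal was 1566 and 317 in 16 dpc ventral, 685 and 235 in 16 dpc dorsal, and 233 and 511 in virgin ventral cells. The highest value was that of 16 dpc ventral replicate 1, but the other 16 dpc ventral array lay below 1 array of each other group. The log2 fold change was 1.03 ± 0.74 against virgin ventral cells and 0.81 ± 0.74 against 16 dpc dorsal cells (limma, adjusted p = 0.643 and 1), with 95% intervals from -0.65 to 2.71 and from -0.87 to 2.49. Within replicate 1 the difference from virgin ventral cells was 2.75 on the log2 scale, and within replicate 2 it was -0.69. Without 16 dpc ventral replicate 1 both differences changed sign, to -0.12 against virgin ventral cells and -0.34 against 16 dpc dorsal cells. Without the replicate 2 arrays of both 16 dpc groups, whose actin ratios were the highest, the difference from virgin ventral cells was 2.18. That value rests on 1 array of 16 dpc ventral cells and leaves out the spread between 1566 and 317 within that group.

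Igfbp4, whose product binds IGF and is cleaved by the protease PAPP-A to release it, showed the same kind of spread. The probe set standing for the gene gave 3847 and 1564 in 16 dpc ventral, 3166 and 1211 in 16 dpc dorsal, and 970 and 3890 in virgin ventral cells. All 3 groups overlapped, and the log2 fold changes were 0.34 ± 0.67 against virgin ventral cells and 0.32 ± 0.67 against 16 dpc dorsal cells (limma, adjusted p = 0.890 and 1). In the 5 detected probe sets of Igfbp4, replicate 1 was above replicate 2 in both 16 dpc groups, and replicate 2 was above replicate 1 in virgin ventral cells. Within replicates the difference from virgin ventral cells was accordingly 1.99 and -1.32. The spread of Igfbp4 was thus between arrays and was shared by its probe sets. The remaining probe set was called present on no array.

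In each group the array with the lower Igfbp2 and Igfbp4 signals was the one with the higher 3′ to 5′ ratio of Gapdh, which was 1.61 and 2.86 in 16 dpc ventral, 1.89 and 2.83 in 16 dpc dorsal, and 2.50 and 1.53 in virgin ventral cells. Hair follicle markers differed within groups in the same direction: Lgr5 had 392 and 123 in 16 dpc ventral, 89.5 and 68.0 in 16 dpc dorsal, and 134 and 484 in virgin ventral cells. For Lhx2 the signals were 423 and 243, 181 and 100, and 223 and 662, in that order. The 7 bulge and outer root sheath markers summed to 34147 and 39255 in 16 dpc ventral, 33329 and 48534 in 16 dpc dorsal, and 39485 and 38689 in virgin ventral cells, a sum dominated by Krt15, with 5 to 7 called present per array. The Csn2 signal given above was also highest in 16 dpc ventral replicate 1, where 8 mammary epithelium markers summed to 7363, against 382 to 1433 on the other 5 arrays. Csn2 alone gave 6185 of that sum, and the luminal keratin genes Krt8, Krt18 and Krt19 of the same list were at 104, 94.3 and 46.2 on that array, against 474, 413 and 282 on virgin ventral replicate 2. The part of transcript length or of these cell types in Igfbp2 and Igfbp4 was not tested.

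**Figure D3:**
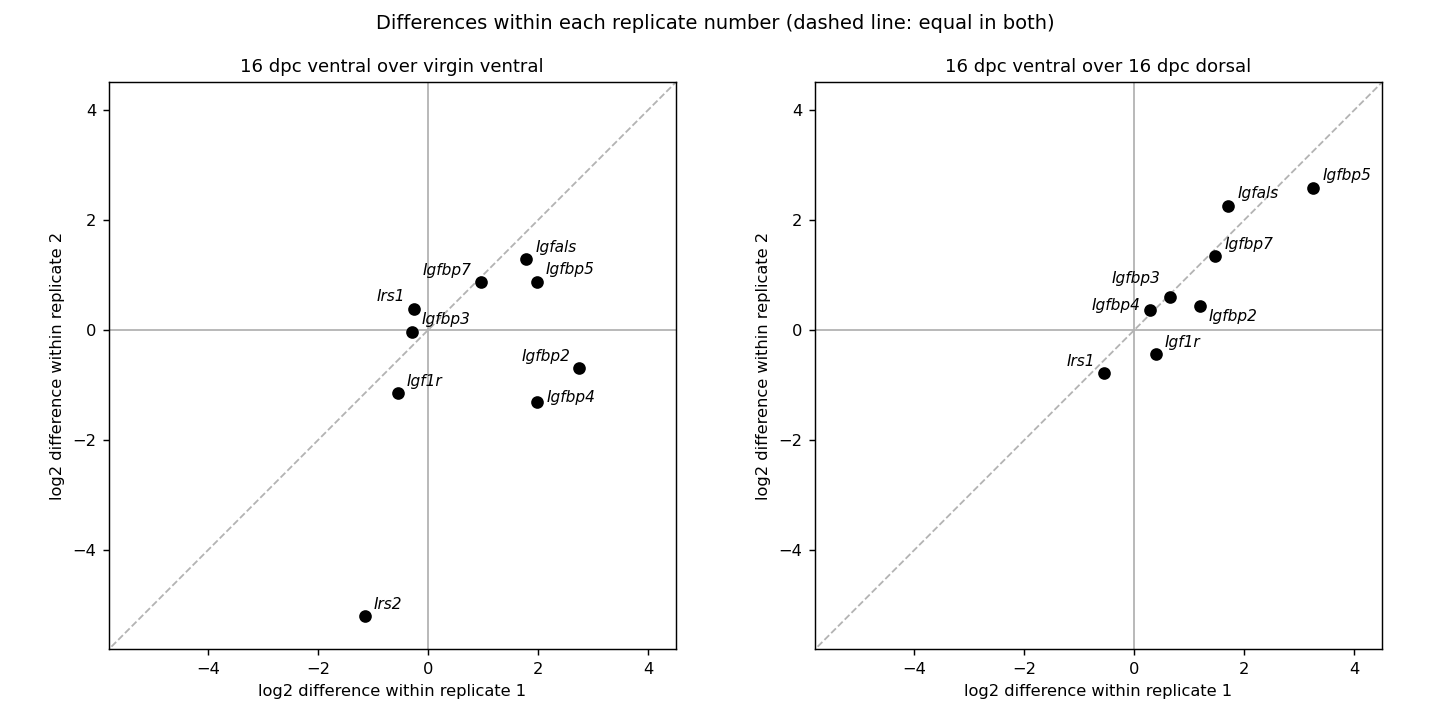
Log2 difference of 16 dpc ventral cells from virgin ventral cells (left) and from 16 dpc dorsal cells (right), within replicate 1 (x axis) and within replicate 2 (y axis), for each tested gene called present in at least 1 of the 2 groups. Igfbp7 lies near the dashed line of equal values in both panels, whereas Igfbp2 and Igfbp4 lie at positive x and negative y in the left panel.

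Igfbp6, which prefers IGF2 over IGF1, was at the edge of detection. Its 1 probe set lay between 14.9 and 44.4 on all arrays, both of these in virgin ventral cells, with 43.8 and 23.2 in 16 dpc ventral cells, and was called present on 1 array of each group. No test was made.

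Igfals was called present in 16 dpc ventral cells alone. The gene encodes the acid labile subunit, a protein made mainly in liver that joins IGF and IGFBP3 or IGFBP5 in the large complex of plasma. The signal was 122 and 109 in 16 dpc ventral cells, called present on both arrays, against 37.3 and 22.9 in 16 dpc dorsal and 35.3 and 45.0 in virgin ventral cells, called present on none of the 4. Both 16 dpc ventral arrays were above all others. At the measured signals the log2 fold change was 1.98 ± 0.46 over 16 dpc dorsal and 1.53 ± 0.46 over virgin ventral cells (limma, adjusted p = 0.406 and 0.259), and with 1 array left out it ran from 1.63 to 2.34 and from 1.36 to 1.71. As the signals of the other groups were not called present, these fitted values stand against levels that were not measured above background.

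On the receptor side, Igf1r was highest in virgin ventral cells. The probe set standing for the gene gave 1617 and 964 in 16 dpc ventral, 1231 and 1310 in 16 dpc dorsal, and 2372 and 2133 in virgin ventral cells. Both virgin arrays were above all 4 arrays of 16 dpc cells, and the 2 groups of 16 dpc cells overlapped. The log2 fold change was -0.85 ± 0.23 for 16 dpc ventral over virgin ventral cells (1291 ± 461 against 2252 ± 169, limma, adjusted p = 0.248) and -0.82 ± 0.23 for 16 dpc dorsal over virgin ventral cells (adjusted p = 0.515). Between 16 dpc ventral and 16 dpc dorsal cells it was -0.02 ± 0.23, with a 95% interval from -0.56 to 0.51.

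The other 3 fitted probe sets of Igf1r were also lower in 16 dpc ventral than in virgin ventral cells, by log2 fold changes of -0.90, -0.48 and -0.12 for 1428967_at, 1426565_at and 1452108_at, and lower in 16 dpc dorsal than in virgin ventral cells, by -1.37, -0.94 and -0.54. For 1428967_at the signals were 1664 and 1007 in 16 dpc ventral, 1297 and 671 in 16 dpc dorsal, and 2769 and 2096 in virgin ventral cells, again with both virgin arrays above the rest. No probe set of Igf1r passed the threshold over all probe sets, and 1 more, 1446303_at, did not pass the detection filter. Probe sets of 1 gene share the same RNA and are not replicates. Between 16 dpc ventral and 16 dpc dorsal cells the 3 other probe sets stood at 0.47, 0.46 and 0.42, opposite in sign to the value of the gene.

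**Figure D4:**
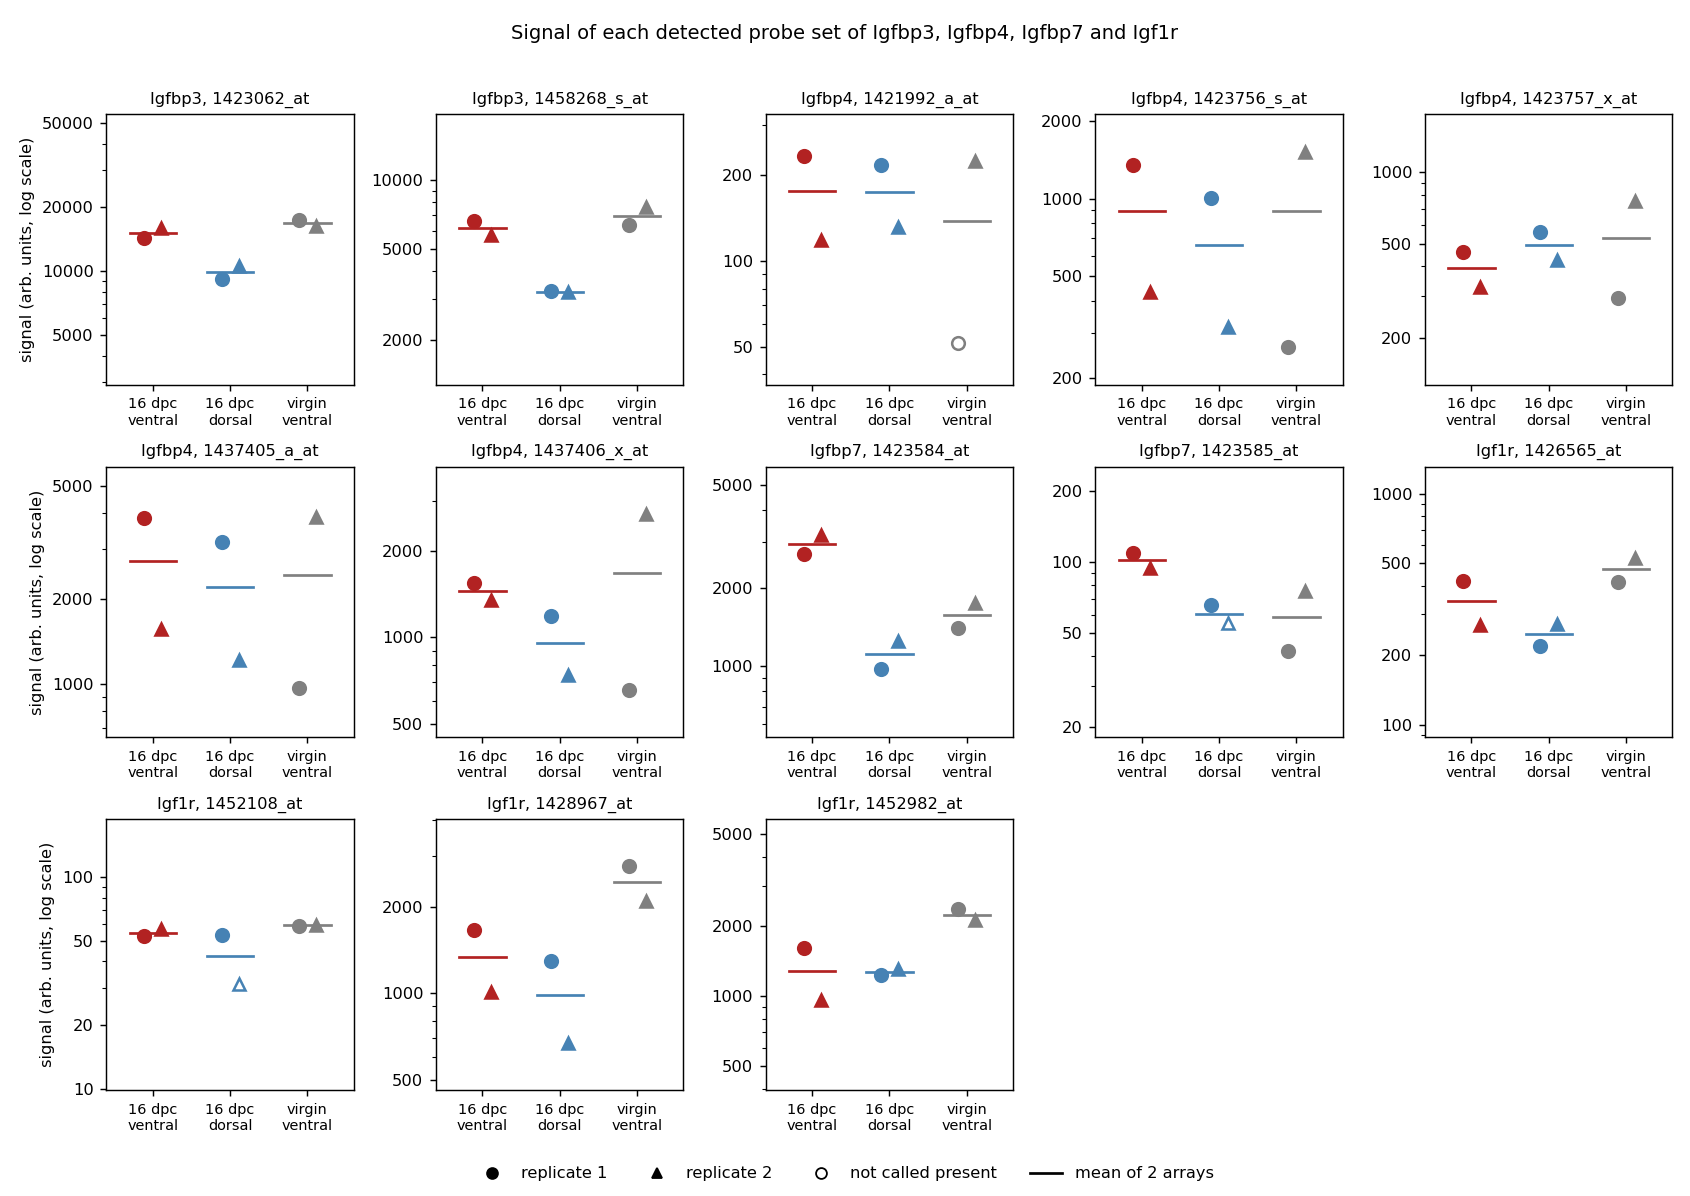
Signal (arbitrary units, log scale) of each probe set of Igfbp3, Igfbp4, Igfbp7 and Igf1r that passed the detection filter, with symbols as in the plot of the 10 genes. The probe sets of Igfbp4 repeat 1 order of arrays within groups, and virgin ventral cells have the highest mean in each of the 4 probe sets of Igf1r.

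Of the adaptors below the receptor, Irs1 was higher in dorsal cells. Its signal was 1518 and 1419 in 16 dpc ventral, 2227 and 2444 in 16 dpc dorsal, and 1801 and 1083 in virgin ventral cells. The dorsal arrays lay above all 4 ventral arrays, whereas the 2 ventral groups overlapped. The log2 fold change was -0.67 ± 0.23 for 16 dpc ventral over 16 dpc dorsal cells (limma, adjusted p = 0.800), 0.74 ± 0.23 for 16 dpc dorsal over virgin ventral cells (adjusted p = 0.588) and 0.07 ± 0.23 for 16 dpc ventral over virgin ventral cells (adjusted p = 0.935).

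Irs2, an adaptor like Irs1 whose transcription in liver is raised by FOXO factors and lowered by insulin, was called present on both arrays of virgin ventral cells and on none of the 4 arrays of 16 dpc cells. The signal was 147 and 8.72 in 16 dpc ventral and 172 and 64.3 in 16 dpc dorsal cells, against 327 and 322 in virgin ventral cells. All 16 dpc arrays were thus below both virgin arrays. At the measured signals the log2 fold change over virgin ventral cells was -3.18 ± 1.08 for 16 dpc ventral and -1.62 ± 1.08 for 16 dpc dorsal cells (limma, adjusted p = 0.315 and 0.730), again against levels not measured above background. The size for 16 dpc ventral cells rested on replicate 2, whose signal of 8.72 was not called present: without that array the log2 fold change was -1.14. Between 16 dpc ventral and 16 dpc dorsal cells no fold is given, as neither had a call of present.

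The ligands of the pathway were near or below detection in these cells. Of the 24 calls of the 4 Igf1 probe sets 3 were present, each on a different probe set, and of the 12 calls of Igf2, the 6 of Ins2 and the 6 of Igfbp1 none was. The insulin receptor gene Insr was called present on all 6 arrays by 1 of its 3 probe sets, with 839 and 893 in 16 dpc ventral, 886 and 1093 in 16 dpc dorsal, and 1059 and 909 in virgin ventral cells. Igf2r, the receptor that removes IGF2, was called present by both probe sets on all arrays. The one standing for the gene gave 562 and 212 in 16 dpc ventral, 339 and 212 in 16 dpc dorsal, and 672 and 642 in virgin ventral cells, so that both virgin arrays were above the 4 others. The other probe set did not show this order, with 442 and 328 in 16 dpc ventral, 252 and 383 in 16 dpc dorsal, and 427 and 451 in virgin ventral cells. For the first probe set the log2 fold changes were -0.93 ± 0.42 for 16 dpc ventral and -1.29 ± 0.42 for 16 dpc dorsal over virgin ventral cells (limma, adjusted p = 0.442 and 0.602).

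A list of 53 further genes of the pathway held 48 on the array, of which 34 passed the detection filter. None passed the adjusted threshold in any of the 3 comparisons, and 4, 5 and 1 had an unadjusted p under 0.05. These are 11.8%, 14.7% and 2.94% of the 34, beside 11.6%, 5.09% and 7.27% of all genes tested. Their median log2 fold changes were -0.11 for 16 dpc ventral over virgin ventral, -0.05 for 16 dpc ventral over 16 dpc dorsal and -0.03 for 16 dpc dorsal over virgin ventral cells. Pik3r3, a regulatory subunit of PI3 kinase, had 247 and 225 in 16 dpc ventral, 122 and 107 in 16 dpc dorsal, and 139 and 175 in virgin ventral cells, a log2 fold change of 1.04 ± 0.28 over 16 dpc dorsal cells (limma, adjusted p = 0.551). Grb10, an inhibitory adaptor of the insulin and IGF1 receptors, had 81.4 and 108 in 16 dpc ventral and 53.1 and 37.9 in 16 dpc dorsal cells (1.06 ± 0.44, adjusted p = 0.927).

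On the other side, the transcription factor gene Foxo1, whose product AKT keeps out of the nucleus, had 1690 and 1820 in 16 dpc ventral and 2419 and 2335 in 16 dpc dorsal cells (-0.44 ± 0.17, limma, adjusted p = 0.896). Igf2bp3, which encodes an RNA-binding protein of Igf2 transcripts, had 42.8 and 58.8 in 16 dpc ventral and 105 and 104 in virgin ventral cells (-1.06 ± 0.38, adjusted p = 0.338), but was not called present on either 16 dpc ventral array. Tsc1, a brake on mTOR, had 539 and 415 in 16 dpc ventral and 710 and 667 in virgin ventral cells (-0.54 ± 0.21, adjusted p = 0.379). Pappa, the protease of IGFBP4, had 41.1 and 3.63 in 16 dpc ventral, 94.2 and 47.9 in 16 dpc dorsal, and 51.0 and 96.4 in virgin ventral cells, with 3 calls of present in all and none in 16 dpc ventral cells.

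Over the 6 arrays, the log2 signals most like that of Igfbp2 among the genes kept were those of Tmem135 (Pearson r = 0.993), Swi5 (0.993) and 1700019D03Rik (0.992). Tmem135 had 554 and 371 in 16 dpc ventral, 441 and 338 in 16 dpc dorsal, and 340 and 395 in virgin ventral cells, which repeats the order of arrays of Igfbp2 except among its lowest values. Irs2 had the widest range of group means among the 9 tested genes (3.18 on the log2 scale). It was most like 5430405H02Rik (0.991), Sirt2 (0.986) and Mapkapk2 (0.985). Its signals on the 16 dpc arrays, among them 8.72 in 16 dpc ventral replicate 2, were not called present, and both the range and these correlations include them. With 6 arrays that share their RNA between all genes, 20 genes reached an r over 0.95 with Igfbp2 and 44 with Irs2.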

How the data were processed

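Epidermal cells freed from dermis with trypsin were sorted as live and α6-integrin-positive, and their RNA was hybridised to Affymetrix mouse arrays. The deposited files give a signal intensity on a linear scale and a detection call for 45101 probe sets per array. The authors made them with Affymetrix Expression Console version 1 (submitters' processing notes) and scaled each array to the same mean, so that changes in total RNA per cell are lost. The headers and the labels differ slightly in the day of gestation, and the labels were followed. The series' value table was not used.

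Signals below 1 were raised to 1 before log2. Each of 18193 genes was represented by its probe set of highest mean log2 signal, from 34945 that name a single gene. Of these, 10993 genes remained after requiring 2 calls of present in at least 1 group. Groups came from the sample titles. The test was limma 3.58.1 (lmFit, eBayes with trend, R 4.3.3, two-sided), fitted to the 6 arrays as 3 groups with 3 residual and 5.79 prior degrees of freedom. P-values were adjusted by Benjamini-Hochberg across all genes (threshold 0.05), and 19616 probe sets were also fitted singly. The script was tested on simulated data. Depth on arrays is signal over background, with the dimmest call of present between 6.34 and 11.3 per array. The named genes were all 10 members, 6 set genes of the pathway list with the 6 of smallest p, and the 3 genes most like Igfbp2 and most like the member of widest range. Genes and lists were chosen with earlier results of these data known. Alternatives covered probe set summary, filter, floor, normalization, variance prior, replicate block and left-out arrays. Of the pathway list, 5 genes were not analysed here.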

Additional observations from a re-analysis of the deposited data

How the results depend on the processing

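The 9 tested genes were refitted under 16 alternatives: other summaries of probe sets, detection filters, floors, normalization, variance priors and sets of arrays. Of 396 fold changes, 371 kept their direction and their side of the threshold, 15 changed sign and 10 came to pass it, and the pathway list stayed at 0 genes passing in every fit. With the replicate block, 1 of the 9 genes passed in 16 dpc ventral over virgin ventral and 2 in 16 dpc ventral over 16 dpc dorsal cells (Igfbp7 in both, Igfbp5 in the second), and the block changed no other call among the 9. The numbers were not treated as pairs in the main fit. Deviations from group means correlated at 0.45 between 16 dpc dorsal and 16 dpc ventral arrays, so these deviated in part together. The correlation was 0.03 between 16 dpc dorsal and virgin ventral, and 0.01 between 16 dpc ventral and virgin ventral arrays, though the block spans every group. Over all genes, 22 passed in 16 dpc ventral over virgin ventral without the block, 5 with the mean of all probe sets and 0 without a variance trend (1160 at an unadjusted p under 0.05). In 16 dpc ventral over 16 dpc dorsal cells these counts were 9, 0 (531 unadjusted) and 1, and in 16 dpc dorsal over virgin ventral cells 11 genes passed with the block and 0 without it.

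Fits without both replicate 2 arrays of 16 dpc cells leave 1 array in each 16 dpc group, so only sizes are given. The log2 fold change of Igfbp2 was 2.18 in 16 dpc ventral over virgin ventral cells. In 16 dpc ventral over 16 dpc dorsal cells, Igfbp5 was at 3.25 and Igfbp7 at 1.47. In 16 dpc dorsal over virgin ventral cells, Igfbp3 was at -0.88 and Igfbp5 at -1.98. Some of the fold changes that came to pass the threshold did so in fits with 1 array in a group. With quantile normalization Igfbp3 passed in 16 dpc dorsal over virgin ventral cells (-0.80, limma, adjusted p = 0.0339). The share of all genes that passed in that fit is not given here. The cause was not tested. Without 16 dpc ventral replicate 1, Irs2 was at -5.22 in 16 dpc ventral over virgin ventral cells. That fit sets 1 array not called present against the virgin arrays and takes its spread from the other groups.

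In 16 dpc ventral over virgin ventral cells, log2 fold changes with 1 array left out ranged from -0.12 to 2.18 for Igfbp2 (negative without 16 dpc ventral replicate 1), from -0.67 to 1.34 for Igfbp4 (negative without virgin ventral replicate 1 or 16 dpc ventral replicate 1) and from -0.30 to 0.44 for Irs1 (negative without virgin ventral replicate 2). In 16 dpc ventral over 16 dpc dorsal cells they ranged from -0.34 to 1.97 for Igfbp2 (negative without 16 dpc ventral replicate 1), from -0.37 to 1.02 for Igfbp4 (negative without 16 dpc ventral replicate 1 or 16 dpc dorsal replicate 2) and from -0.40 to 0.35 for Igf1r (positive without either 16 dpc replicate 2 array). Igf1r was also positive there with the mean of all probe sets (0.43) and without both 16 dpc replicate 2 arrays (0.39). In 16 dpc dorsal over virgin ventral cells they ranged from -0.55 to 0.99 for Igfbp2 and from -0.99 to 1.01 for Igfbp4, both negative without virgin ventral replicate 1 or 16 dpc dorsal replicate 1.
Signal over background limits Igfbp6, which was near detection, and Igfals and Irs2, which were not called present in 2 of the 3 groups, and 2 arrays per group limit every value.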
